A study of Mus musculus with 4 samples.

Results

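A set of genes of the transforming growth factor beta and activin pathway was followed through 4 single-cell RNA sequencing libraries of mouse digit tissue. The 10 members were taken by symbol from the 33696 genes of the count tables. Each symbol occurred once: the ligand genes Tgfb1, Tgfb2, Tgfb3 and Inhba, the receptor genes Tgfbr1, Tgfbr2 and Tgfbr3, the binding protein genes Ltbp2 and Fst, and the target gene Tgfbi. Their transcripts were counted in cells sorted by marker genes into classes, of which 22 in each library held enough cells to be ranked. The tissue was P3 digits, and in the study's model the end of the terminal phalanx (P3) was amputated on digits 2 and 4 of the hind limbs and regenerated. Hind digits 2 to 4 were collected, so that an uncut digit may be in each pool. The mice were female C57BL/6 in the labels (C57BL/6J in the study's methods) aged 6 to 8 weeks, with the digits of 10 mice pooled in each library. One library came from mice given chow with SAR131675, an inhibitor of the lymphatic growth factor receptor VEGFR3, at 30 mg per kg of chow, and its control was a library from mice on a matched control diet. The series' design text gives 8 days of diet, but the study's methods start the chow before amputation and keep it on throughout, so that the length of the diet is not settled here. The other pair was a library taken after lymph node removal (LNR) on 1 extremity and a sham library. In the study the other limb of the animal served as the sham side, so that LNR and sham digits may come from the same mice. The study's text and its figure legend do not give the same day after amputation for the SAR131675 pair, and the day is not used here. For collection the digits were cut at the proximal end of the second phalanx and digested with collagenase and dispase, and red cells were lysed, so that digit tip skin, nail, bone, tendon and joint tissue all entered the suspensions.

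The ligands of this family are dimers. They bring together a type II receptor, such as the product of Tgfbr2, and a type I receptor, such as that of Tgfbr1, which phosphorylates SMAD2 and SMAD3. The product of Tgfbr3, betaglycan, is a co-receptor that presents ligand, in particular TGF-β2. Activin A is a dimer of the inhibin beta A chain encoded by Inhba and signals through its own type II and type I receptors to the same SMADs, and follistatin, the product of Fst, binds activin and keeps it from its receptors. LTBP2 is a fibrillin-binding matrix protein of the latent TGF-β binding protein family that does not itself bind latent TGF-β. Tgfbi encodes a secreted matrix protein named for its induction by TGF-β. In skin and bone the family is known for its part in matrix production, scarring, hair follicle cycling and the coupling of bone resorption to bone formation, and activin A is raised in healing skin wounds.

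Each library was also its own batch, so that batch and treatment cannot be told apart. With 1 library per condition there was no test, and values carry exact Poisson intervals at the 95% level that cover counting error only. Levels are given as CPM, the UMIs (unique transcript molecules) of a gene per 1000000 UMIs of a class in a library, and a member was compared between the libraries of a pair where the class held at least 100 of its UMIs in that pair. Of 21669, 22539, 38464 and 30831 barcodes in the LNR, sham, SAR131675 and control diet libraries, 19827, 20669, 29076 and 24030 passed the limits on genes, UMIs and mitochondrial UMIs, with medians of 5725, 5851, 11316 and 10712 UMIs. The shares of kept cells in unnamed clusters were 12.3%, 15.2%, 18.2% and 18.6%. Median UMIs per cell differed between classes, with 3785, 3496, 7159 and 7083 in macrophage-like cells and 12788, 12021, 17632 and 17502 in suprabasal and granular keratinocyte-like cells, which serve as the background for shares of cells with a UMI, and with 5381, 4918, 8272 and 8279 in osteoblast-like cells. The SAR131675 and control diet libraries shared 348 barcodes, LNR and sham shared 130, and any other 2 libraries shared at most 3. Barcodes with at least 3 markers of another class (mixed barcodes) made up 59.5%, 62.6%, 86.5% and 77.2% of kept cells. In clusters left without a class name, 3 markers of any class sufficed. Markers shared by related cell types, doublets and free RNA were not told apart among these barcodes. Doublet calls made up 6.23%, 8.12%, 4.55% and 1.01% of kept cells. Defining markers were present in the classes where Inhba and Tgfbr2 were read most closely. Osteoblast-like cells had bone sialoprotein (Ibsp) at 5455, 5083, 6283 and 6299 CPM, and lymphatic endothelial-like cells had Ccl21a at 9385, 8688, 13101 and 12196 CPM. Ibsp was also among the leading genes of the tendon and cartilage-like cells of the SAR131675 pair. In osteoblast-like cells it was the only osteoblast marker higher in LNR than in sham, with Bglap, Bglap2, Sp7, Runx2, Alpl and Dmp1 lower. The pairs were counted with different versions of Cell Ranger, so that levels are set side by side across pairs and not compared.

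Tgfb1, the ligand gene best known from immune cells and platelets, was highest in white blood cell classes and lowest in outer epidermis. In macrophage-like cells it stood at 191 CPM in LNR (95% interval 178.9 to 203.4), 173 in sham, 163 in SAR131675 and 195 in control diet. In dendritic and monocyte-like cells the values were 165, 161, 193 and 218 CPM, and in lymphoid-like cells 106, 99.4, 205 and 246 CPM. Macrophage-like cells therefore led in the LNR pair and lymphoid-like cells in the SAR131675 pair. The first and second class differed beyond their counting error only in LNR, an order that turned when classes were set from the markers of each cell. Suprabasal and granular keratinocyte-like cells held 3.08, 3.35, 1.51 and 1.23 CPM. Of macrophage-like cells, 54.0% in LNR, 48.2% in sham, 52.0% in SAR131675 and 57.6% in control diet had a Tgfb1 UMI. The shares in suprabasal and granular keratinocyte-like cells, taken as the background, were 3.47%, 3.53%, 2.47% and 1.91%. Among other classes, lymphatic endothelial-like cells held 163, 140.4, 148 and 131 CPM, tendon and cartilage-like cells 79.3, 71.8, 148 and 145 CPM, and osteoblast-like cells 133, 134, 101 and 101 CPM. In the LNR pair lymphatic endothelial-like and osteoblast-like cells therefore lay above lymphoid-like cells.

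Tgfb2 was highest in mesenchymal classes. Fibroblast-like cells held 194 CPM in LNR, 191 in sham, 257 in SAR131675 and 249 in control diet. Dermal papilla and nail mesenchyme-like cells, the signalling fibroblasts beneath hair and nail, held 201, 131, 242 and 270 CPM, and osteoblast-like cells 215, 179, 167 and 158 CPM. The first and second class came from these 3 in every library and in none of the 4 differed beyond counting error. In control diet osteoblast-like cells lay below synovial lining-like and mural-like cells, both at 186 CPM. Sweat gland-like cells were the leading epithelial class at 143, 127, 134 and 134 CPM. Mesenchymal classes (fibroblast, synovial lining, tendon and cartilage, osteoblast, mural, dermal papilla and nail mesenchyme, and the Lrrc15 Col11a1 Tnn cluster, which scored on more than 1 marker list, was left unnamed for that and is called by its leading genes) gave 68.2%, 64.0%, 55.8% and 61.4% of all Tgfb2 UMIs, against 25.1%, 20.9%, 15.5% and 15.6% of the UMIs of all genes. A Tgfb2 UMI was found in 42.5%, 42.2%, 69.6% and 68.0% of fibroblast-like cells, and in 5.78%, 5.04%, 2.82% and 2.79% of macrophage-like cells.

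Tgfb3 was highest in mural-like cells, the pericytes and smooth muscle cells of vessel walls, in all 4 libraries. Its levels there were 83.7 CPM in LNR, 85.5 in sham, 92.5 in SAR131675 and 96.3 in control diet. The second class was lymphatic endothelial-like in LNR (77.3 CPM), tendon and cartilage-like in sham (70.3) and control diet (75.1), and osteoblast-like in SAR131675 (90.4). Mural-like cells stood above the second class beyond counting error in control diet alone, and there the order turned after thinning every cell to 1500 UMIs and with coarser clusters. Fibroblast-like cells held 56.8, 55.8, 67.0 and 58.4 CPM. A fibroblast-like cluster led by Col8a1, Rbp4 and Eln, given further below, lay above the mural-like class as a whole in all 4 libraries. Within the mural-like class the Myh11 cluster, named for smooth muscle myosin, held 134 CPM in LNR and 143 in sham, and the Rgs5 cluster held 56.2 and 57.0 CPM. Rgs5 is a pericyte marker, but in this pair Myh11, Acta2 and Tagln were also among the leading genes of that cluster. The clusters therefore do not separate pericytes from smooth muscle cells in the LNR pair.

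Inhba, the gene of the activin A chain, was highest in osteoblast-like cells in the LNR pair and in dermal papilla and nail mesenchyme-like cells in the SAR131675 pair. Osteoblast-like cells held 764 CPM in LNR (731.1 to 797.1) and 451 CPM in sham (421.5 to 482.7), which was 3.38 and 2.75 times the level of the next class. That class was dermal papilla and nail mesenchyme-like cells at 226 and 164 CPM. In the SAR131675 pair, dermal papilla and nail mesenchyme-like cells led at 271 CPM in SAR131675 and 249.98 CPM in control diet, 1.65 and 1.93 times the next class, while osteoblast-like cells held 41.5 and 52.7 CPM on 68 and 48 UMIs. The differences between the first and second class were beyond counting error in all 4 libraries. Without barcodes holding markers of another class the sham order turned (log2 ratio -0.10), and so did that of control diet without the upper limits on genes and UMIs (-0.03). Osteoblast-like cells of both pairs carried Ibsp. Runx2, the osteoblast transcription factor, stood at 189.8 and 229.6 CPM there in LNR and sham and at 2182 and 2360 CPM in SAR131675 and control diet. Counting version, pair and makeup of the class cannot be told apart for either gene, and no difference between the pairs is drawn from these levels.

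**Figure D1:**
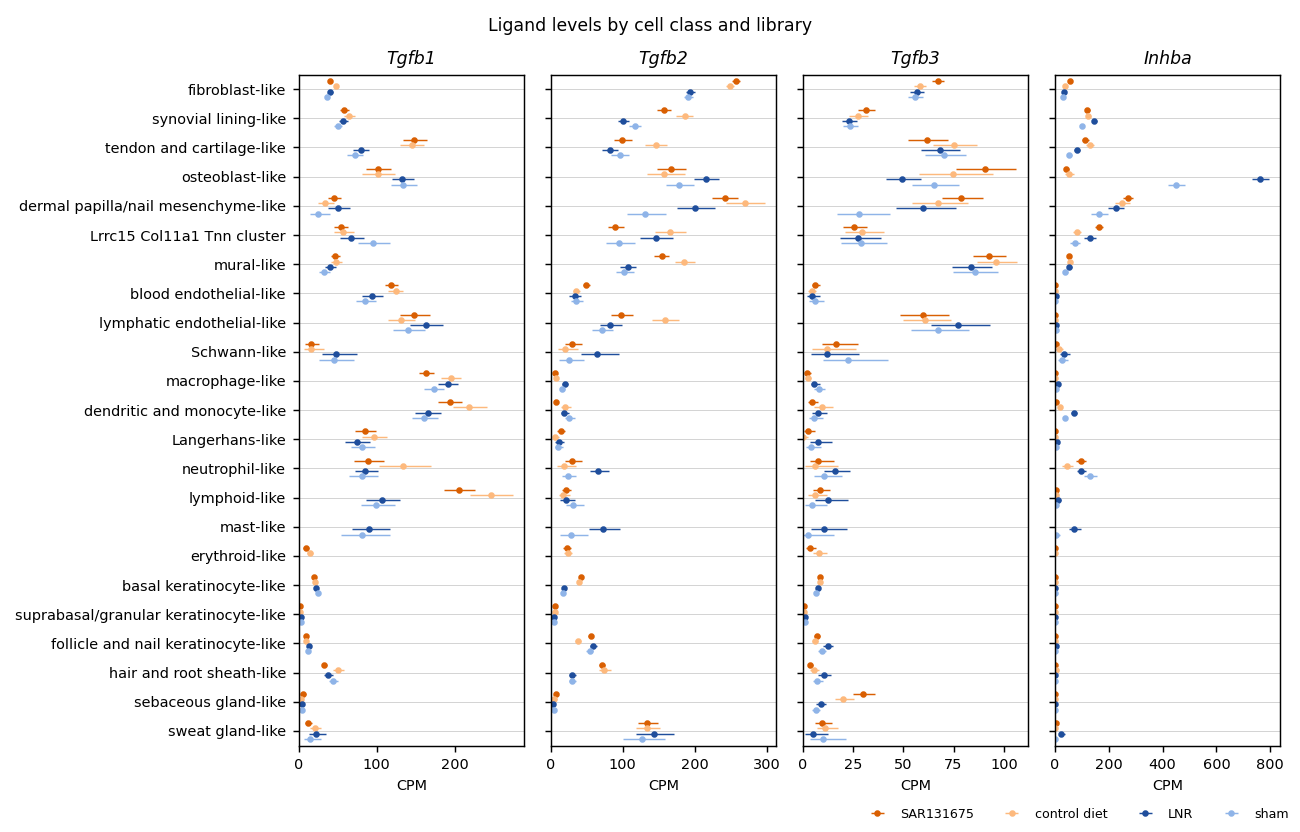
Levels of the 4 ligand genes (x axis, CPM on a linear scale) in each cell class (y axis), with 1 point per library and bars for the 95% counting interval. Inhba in osteoblast-like cells stood at 764 CPM in LNR and 451 in sham, above every other class of those libraries.

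The Inhba counts of osteoblast-like cells came from a minority of the cells. In LNR 117 of 365 osteoblast-like cells (32.1%, exact binomial interval 27.3 to 37.1%) had an Inhba UMI, and in sham 77 of 272 (28.3%). The 48 LNR cells with at least 10 Inhba UMIs held 92.8% of the 2080 UMIs of the class, with up to 147 in a cell. In sham, 22 such cells held 85.3% of 851 UMIs, with up to 81 in a cell. No kept osteoblast-like cell of the SAR131675 pair reached 10, and the most was 7 in SAR131675 and 4 in control diet. Barcodes over the limit of 5500 genes, which were left out, made up 15.1% in SAR131675 and 12.9% in control diet. In LNR and sham they made up 1.36% and 1.24%. The part of this limit in the lack of cells with many Inhba UMIs was not tested. Suprabasal and granular keratinocyte-like cells, the background class for Inhba, had a UMI in 0.694% and 0.412% of cells in the LNR pair and 0.266% and 0.323% in the SAR131675 pair. Mesenchymal classes together gave 85.9%, 81.8%, 91.9% and 90.7% of all Inhba UMIs. Beyond them, neutrophil-like cells held 97.6, 131, 96.3 and 44.4 CPM.

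Of the receptor genes, Tgfbr1, which encodes the type I receptor, was highest per UMI in mesenchymal and myeloid classes. Mesenchymal classes gave 46.7%, 41.8%, 32.7% and 35.5% of its UMIs and epithelial classes 24.0%, 28.2%, 44.4% and 40.4% in LNR, sham, SAR131675 and control diet. Of the UMIs of all genes, epithelial classes gave 49.0%, 51.2%, 60.5% and 60.7%. Mast-like cells, a class found only in the LNR pair, led at 87.4 CPM in LNR and 92.7 in sham, and did not stand apart from dermal papilla and nail mesenchyme-like cells at 70.5 and 78.6 CPM. The latter led in the SAR131675 pair at 263 and 307 CPM, apart from synovial lining-like cells at 181 and 194 CPM. Macrophage-like cells held 58.1, 59.5, 97.8 and 121 CPM. Outer epidermis was at the low end, with 7.42, 7.07, 23.2 and 24.0 CPM in suprabasal and granular keratinocyte-like cells.

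Tgfbr2, the gene of the type II receptor, was highest in lymphatic endothelial-like cells in every library, the class whose growth factor receptor the inhibitor targets. The levels were 561 CPM in LNR (523.2 to 601.4), 559.9 in sham (520.1 to 601.9), 675 in SAR131675 (636.1 to 716.6) and 582 in control diet (547.1 to 619.3). The next class was macrophage-like in the LNR pair, at 274 and 284 CPM, and fibroblast-like in the SAR131675 pair, at 329 and 402 CPM. Lymphatic endothelial-like cells stood 2.05, 1.97, 2.05 and 1.45 times above it, beyond counting error in all 4 libraries. A Tgfbr2 UMI was found in 81.6%, 80.7%, 84.3% and 85.7% of these cells, and in 9.93%, 8.95%, 15.3% and 16.4% of suprabasal and granular keratinocyte-like cells. With every cell thinned to 1500 UMIs the shares in lymphatic endothelial-like cells were 48.5%, 54.5%, 55.5% and 55.4%. Blood endothelial-like cells held 151, 167, 179 and 216 CPM.

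Tgfbr3, the gene of betaglycan, was highest in tendon and cartilage-like and fibroblast-like cells. Tendon and cartilage-like cells held 311, 241, 689 and 844 CPM in LNR, sham, SAR131675 and control diet, and fibroblast-like cells 309, 293, 639 and 736 CPM. Fibroblast-like cells led in sham, though not without barcodes holding markers of another class, tendon and cartilage-like cells led in the SAR131675 pair, and the 2 classes did not differ beyond counting error in LNR. Blood endothelial-like cells came next in the LNR pair at 181 and 203 CPM. Among epithelial classes, basal keratinocyte-like cells held 35.3, 33.7, 134 and 172 CPM, hair and root sheath-like cells 4.93 CPM in sham, 8.33 in SAR131675 and 12.6 in control diet, the lowest of all classes there, and sebaceous gland-like cells 43.0, 47.3, 416 and 446 CPM, close to osteoblast-like cells (420.2 CPM) in SAR131675.

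**Figure D2:**
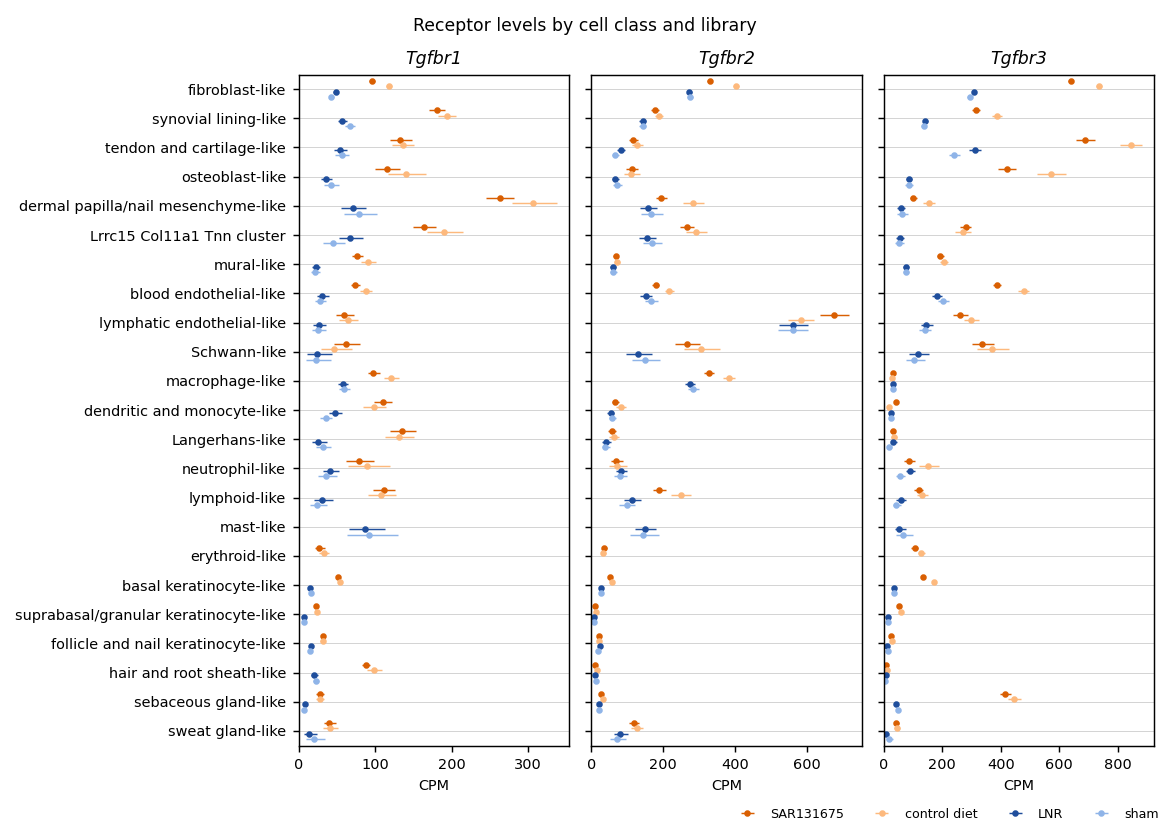
Levels of the 3 receptor genes (x axis, CPM on a linear scale) in each cell class (y axis), with 1 point per library and bars for the 95% counting interval. Tgfbr2 in lymphatic endothelial-like cells lay between 559.9 and 675 CPM in the 4 libraries, above every other class.

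Ltbp2 was sparse, at 7.51, 5.07, 4.63 and 5.44 CPM over all kept cells, and was highest in osteoblast-like or tendon and cartilage-like cells. Fibroblast-like cells, a larger class at 22.2, 17.6, 20.5 and 27.2 CPM, gave the most Ltbp2 UMIs, 399 of 1073, 279 of 764, 621 of 1574 and 713 of 1446 in LNR, sham, SAR131675 and control diet, and epithelial classes gave 10.5%, 12.3%, 28.8% and 17.1%. Osteoblast-like cells led in the LNR pair at 65.3 and 77.4 CPM, and tendon and cartilage-like cells led in the SAR131675 pair at 56.4 and 57.9 CPM. Each stood beyond counting error above the next class, which in the LNR pair was tendon and cartilage-like cells (24.2 CPM in LNR) and the Lrrc15 Col11a1 Tnn cluster (23.5 CPM in sham). Osteoblast-like cells were second in the SAR131675 pair at 37.9 and 37.3 CPM. Without the upper limits on genes and UMIs, osteoblast-like cells were above tendon and cartilage-like cells in both libraries of the SAR131675 pair, and without barcodes holding markers of another class they were below them in LNR. A Ltbp2 UMI was found in 19.7%, 17.6%, 10.6% and 10.5% of osteoblast-like cells, and in 0.881%, 0.322%, 0.352% and 0.294% of macrophage-like cells.

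Fst, the activin inhibitor, was highest in nail and hair mesenchyme and in follicle and nail epithelium. Dermal papilla and nail mesenchyme-like cells held 251 CPM in LNR, 171 in sham, 583 in SAR131675 and 278 in control diet. Follicle and nail keratinocyte-like cells held 181, 204, 229 and 237 CPM, and led in sham, where the classes did not differ beyond counting error. The order turned in control diet after thinning, with coarser clusters and as a mean over cells, and in LNR without the upper limits on genes and UMIs. The 2 classes were 2.55 times apart in SAR131675. Mural-like cells held 173, 132, 150.2 and 146 CPM, and within them Fst lay in the Rgs5 cluster (260.5 CPM in LNR, 195 in sham, 174 in SAR131675, 181 in control diet) rather than in the Myh11 cluster (13.0, 4.47, 24.5 and 13.1 CPM). In the LNR pair Myh11 was also among the leading genes of the Rgs5 cluster. A small mural-like cluster of the SAR131675 pair led by Cnn1, with 32 and 28 cells, held 1084 and 852 CPM. By origin, 43.7%, 32.6%, 32.4% and 25.8% of Fst UMIs came from mesenchymal classes and 36.5%, 42.1%, 44.8% and 44.9% from epithelial classes. The epithelial shares lay below those of the UMIs of all genes, which were 49.0%, 51.2%, 60.5% and 60.7%.

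Tgfbi, the TGF-β-induced matrix gene, was highest in macrophage-like cells in all 4 libraries. These cells held 1054 CPM in LNR, 1004 in sham, 763 in SAR131675 and 862 in control diet. Dendritic and monocyte-like cells came second at 744, 547, 348 and 489 CPM, beyond counting error below. Lymphatic endothelial-like cells (363, 355, 247 and 293 CPM) and fibroblast-like cells (349.6, 344, 229 and 263 CPM) followed. A Tgfbi UMI was found in 92.9%, 91.5%, 90.3% and 93.5% of macrophage-like cells, against 35.4%, 33.4%, 37.5% and 37.2% of suprabasal and granular keratinocyte-like cells. Epithelial classes gave 26.0%, 29.9%, 48.2% and 46.8% of all Tgfbi UMIs, and mesenchymal classes 30.7%, 28.2%, 18.3% and 19.2%. Whether the UMIs in keratinocyte-like cells are their own or background was not tested. After thinning, the macrophage-like shares were 78.8%, 77.3%, 66.5% and 71.0%.

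**Figure D3:**
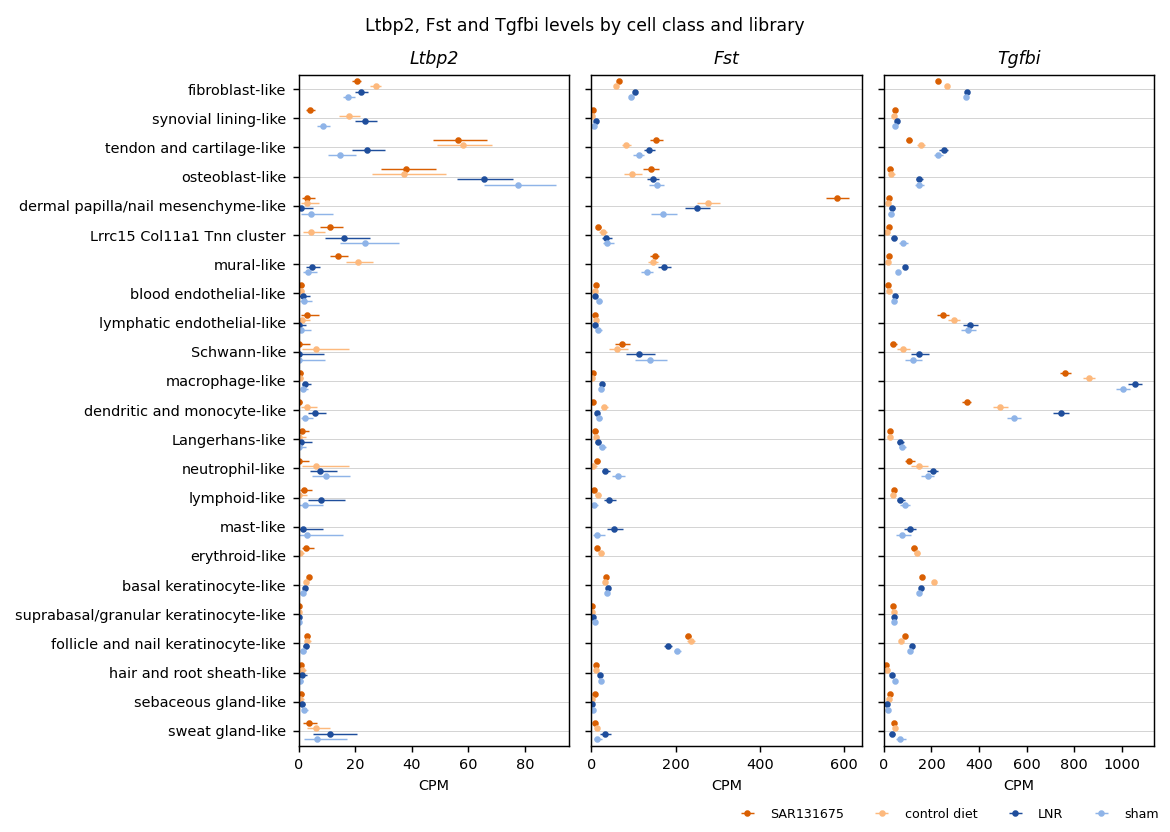
Levels of Ltbp2, Fst and Tgfbi (x axis, CPM on a linear scale) in each cell class (y axis), with 1 point per library and bars for the 95% counting interval. Fst in dermal papilla and nail mesenchyme-like cells was at 583 CPM in SAR131675 and 278 in control diet, and Tgfbi was highest in macrophage-like cells of every library.

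Comparing LNR with sham addresses how surgery meant to alter lymphatic function bears on the digit. Over all kept cells the levels in LNR and sham were 40.4 and 34.6 CPM for Tgfb1, 58.7 and 50.5 for Tgfb2, 19.5 and 17.0 for Tgfb3, and 36.3 and 19.7 for Inhba. The receptors stood at 26.1 and 24.0 CPM (Tgfbr1), 87.4 and 78.3 (Tgfbr2), and 87.2 and 75.6 (Tgfbr3), with Fst at 58.2 and 54.1 and Tgfbi at 186 and 163 CPM. All 10 members were higher in LNR. Inhba was the only member past 1.5 times, with a log2 ratio of 0.88 on 5191 UMIs in LNR and 2967 in sham, and Ltbp2 came next at 0.57. Of 16085 genes with at least 100 UMIs, 1.5% were at least 1.5 times higher and 0.802% at least 1.5 times lower in LNR, against 1 and 0 of the 10 members, and the median log2 ratio was 0.02 over all genes and 0.21 over the members. In bulk sums over all cells, more cells of a type and more RNA per cell cannot be told apart. Mesenchymal classes took 25.1% of the UMIs in LNR and 20.9% in sham, and osteoblast-like cells 1.84% and 1.32% of kept cells. With each class at its share of UMIs in sham, Inhba stood at 28.4 against 19.7 CPM, a ratio of 1.44 times, and no member was past 1.5 times. All 10 members stayed above 0 at those shares, with log2 ratios between 0.0041 and 0.041 for Tgfb2, Tgfb3, Tgfbr1, Tgfbr2 and Fst. As a mean over cells of CPM per cell the log2 ratio of Inhba was 0.58, within 1.5 times, and Ltbp2 at 0.59 was the member past it. A cluster led by the hair and nail keratin genes Krt36 and Krt84 held 6 LNR and 389 sham cells, with 0.0758% of the UMIs of LNR and 3.93% of those of sham. Leaving these cells out, all 10 members were still higher in LNR. The median of their log2 ratios was then 0.19, beside 0.02 over all genes, and Inhba stood at 0.88.

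Within osteoblast-like cells Inhba stood at 764 CPM in LNR and 451 in sham (log2 ratio 0.76, interval 0.64 to 0.88), and the other 9 members were within 1.5 times. Ltbp2 was at 65.3 and 77.4 CPM, Tgfb2 at 215 and 179, Tgfb3 at 49.6 and 65.2, and Fst at 146 and 155. The share of genes called in this class was 1.38% higher and 1.51% lower, against 1 and 0 of 10 members. The thinned share of osteoblast-like cells with an Inhba UMI was 20% in LNR and 13.5% in sham. Osteocalcin (Bglap), a gene of mature osteoblasts, was at 2007 CPM in LNR and 3298 in sham in the same class, and its part in the Inhba difference was not tested. Over the alternatives the log2 ratio lay between 0.66 and 2.53.

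Inhba was above its sham level in 8 of the 9 classes with enough UMIs, and beyond counting error in 7. All classes come from the same libraries and are not separate observations. How many genes were higher in as many classes was not counted. The median log2 ratio of all genes was 0.03 in osteoblast-like and 0.01 in fibroblast-like cells. Dermal papilla and nail mesenchyme-like cells held 226 and 164 CPM, synovial lining-like cells, which line the joint cavity, 147 and 100.03, and the Lrrc15 Col11a1 Tnn cluster 130 and 73.8. Mural-like cells held 53.8 and 39.6 CPM, and fibroblast-like cells 32.4 and 29.2, the last within counting error. Neutrophil-like cells went the other way at 97.6 and 131 CPM. Dendritic and monocyte-like cells held 70.5 and 36.4 CPM, but 5 cells carried 68.0% of those UMIs in LNR and 5 carried 90.2% in sham, and without barcodes holding markers of another class the log2 ratio was 0.01. In tendon and cartilage-like cells the levels were 83.1 and 53.7 CPM (log2 ratio 0.63), a direction that turned to -0.20 without barcodes holding markers of another class.

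Ltbp2 was 2.71 times higher in LNR in synovial lining-like cells, at 23.5 against 8.69 CPM on 157 and 59 UMIs (log2 ratio 1.44, interval 1.00 to 1.89). In tendon and cartilage-like cells it was at 24.2 against 14.7 CPM, which turned to -0.38 on the log2 scale when each library was clustered alone, and in fibroblast-like cells at 22.2 against 17.6. Synovial lining-like cells also held more Fst, at 11.2 against 6.33 CPM. In this class 2 of 10 members were at least 1.5 times higher and none lower, with 0.968% and 0.744% of all genes. In tendon and cartilage-like cells 2 of 10 were higher (Ltbp2 and Inhba) and none lower, against 1.39% and 0.827% of genes.

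Tgfb2 was higher in LNR in dermal papilla and nail mesenchyme-like cells, at 201 against 131 CPM (log2 ratio 0.62), which fell to 0.14 after thinning. It was the 1 of 6 members past 1.5 times there, with none lower, against 4.37% and 1.7% of genes. The Lrrc15 Col11a1 Tnn cluster had 3 of 7 members higher, Tgfb2 (146 against 95.2 CPM), Tgfbr1 (67.5 against 44.9) and Inhba, and 1 lower, Tgfbi (41.7 against 81.3), against 2.06% and 1.8% of genes. That cluster held 163 LNR and 137 sham cells. Inhba and Tgfbi stayed past 1.5 times there under all 6 alternatives that could be run. Tgfb2 (log2 ratio 0.61) was at 0.41 without the 5 cells with the most UMIs of the gene in each library, and Tgfbr1 (0.59) stayed past 1.5 times under 1 of the 6, with 0.42 after thinning. None of the 10 members passed 1.5 times in fibroblast-like cells, where 0.519% of genes were higher and 0.43% lower. Tgfbr2 in lymphatic endothelial-like cells, its highest class, was at 561 and 559.9 CPM (interval of the log2 ratio -0.14 to 0.15), and Tgfbr3 in fibroblast-like cells at 309 and 293 CPM. Tgfbi was at 744 against 547 CPM in dendritic and monocyte-like cells and at 88.6 against 58.5 CPM in mural-like cells, where the direction turned without barcodes holding markers of another class. Tgfbi was the 1 of 9 members past 1.5 times in mural-like cells, with none lower, against 1.81% and 1.08% of genes, and Inhba the 1 of 7 in dendritic and monocyte-like cells, with none lower, against 3.6% and 2.51%. In neutrophil-like cells Tgfb2 (66.4 against 23.6 CPM) and Tgfbr3 (91.3 against 56.0) were the 2 of 8 members higher and Fst (33.2 against 62.9) the 1 lower, against 5.79% and 3.25% of genes. Each of the 3 turned under at least 1 alternative.

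**Figure D4:**
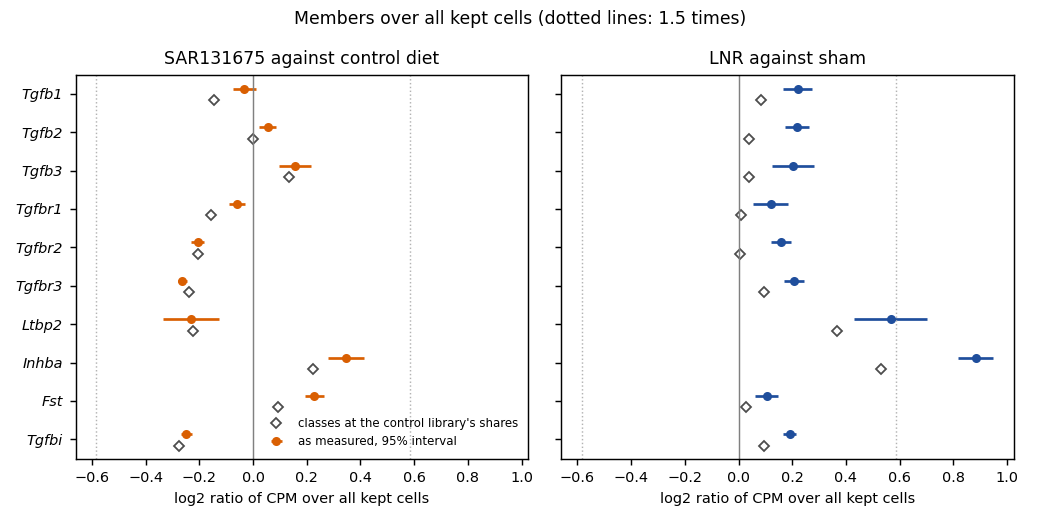
Log2 ratio of CPM over all kept cells (x axis) for the 10 members (y axis) in the SAR131675 pair (left) and the LNR pair (right). Filled points with bars are the ratios as measured with 95% counting intervals, open diamonds the ratios with each class at its share in the control library, and dotted lines mark 1.5 times. Inhba in LNR moved from 0.88 to 0.53.

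Comparing SAR131675 with control diet addresses the same question with a drug. Over all kept cells the levels in SAR131675 and control diet were 28.4 and 29.1 CPM for Tgfb1, 59.3 and 57.1 for Tgfb2, 16.3 and 14.6 for Tgfb3, and 14.2 and 11.1 for Inhba. The receptors stood at 57.1 and 59.4 CPM (Tgfbr1), 85.2 and 98.2 (Tgfbr2), and 175 and 211 (Tgfbr3), with Fst at 47.9 and 40.9 and Tgfbi at 126 and 149.7 CPM. Of the 10 members, 4 were higher in SAR131675 (Tgfb2, Tgfb3, Inhba and Fst), and none passed 1.5 times in either direction. Of 18944 genes, 2.44% were at least 1.5 times higher and 2.51% lower. The largest log2 ratio was 0.35 for Inhba and the smallest -0.26 for Tgfbr3, and the median was -0.05 over the members and -0.01 over all genes.

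The receptor genes lay below their control diet level in most classes. Tgfbr3 was lower in 19 of 22 classes with enough UMIs and beyond counting error in 13. It stood at 639 against 736 CPM in fibroblast-like cells, 689 against 844 in tendon and cartilage-like cells, 420.2 against 570.5 in osteoblast-like cells and 134 against 172 in basal keratinocyte-like cells. Tgfbr2 was lower in 19 of 22 classes, beyond counting error in 7, with 329 against 402 CPM in fibroblast-like cells and 328 against 383 in macrophage-like cells. Lymphatic endothelial-like cells, where Tgfbr2 was highest, went the other way at 675 against 582 CPM (log2 ratio 0.21, interval 0.09 to 0.34), and this turned to -0.21 without barcodes holding markers of another class. Tgfbr1 was lower in 17 of 21 classes, beyond counting error in 6, with 95.9 against 118 CPM in fibroblast-like cells. The median log2 ratio of all genes was also below 0 in most classes. It was -0.02 in fibroblast-like, -0.03 in osteoblast-like and -0.05 in basal keratinocyte-like cells. Over the classes compared, the median was -0.20 for Tgfbr3, -0.14 for Tgfbr2 and -0.12 for Tgfbr1. How many genes were lower in as many classes was not counted, and all classes come from the same libraries. None of the receptor ratios in fibroblast-like cells reached 1.5 times, and none of the 10 members did so in that class, where 1.93% of genes were higher and 1.64% lower. The sum over a class is a share, so that a lower receptor level is lower relative to all other transcripts of that class.

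In dermal papilla and nail mesenchyme-like cells Fst stood at 583 CPM in SAR131675 and 278 in control diet (log2 ratio 1.07, interval 0.91 to 1.23). The 387 SAR131675 cells of the class held 1773 Fst UMIs, of which 56 cells with at least 10 UMIs held 85.3%. In control diet 14 of 230 cells did so and held 68.2% of 393 UMIs. The share of cells with a Fst UMI was 41.9% against 30.4%, and 22.1% against 14.0% after thinning, with 2.11% and 0.882% in macrophage-like cells. Cells of the class had medians of 6926 and 5229 UMIs, on which the unthinned shares depend. Over the alternatives the log2 ratio lay between 0.78 and 1.81. Tgfbr3 was lower in the same class, at 101 against 154 CPM, a ratio that fell to -0.15 on the log2 scale with coarser clusters. These were the members past 1.5 times there, 1 higher and 1 lower of 8, against 3.82% and 3.14% of genes. Tendon and cartilage-like cells also held more Fst in SAR131675, at 154 against 82.8 CPM, and this was the 1 of 10 members past 1.5 times in that class, with none lower, against 2.18% and 3.17% of genes. Its log2 ratio of 0.90 fell to 0.56 after thinning and to 0.39 with coarser clusters, both within 1.5 times. The follicle and nail keratinocyte-like class was at 229 and 237 CPM, within counting error. Fibroblast-like cells, with a lower level, held 1967 and 1523 Fst UMIs, more than the 1773 and 393 of dermal papilla and nail mesenchyme-like cells.

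Inhba was higher in SAR131675 in fibroblast-like cells, at 54.8 against 38.1 CPM (log2 ratio 0.53, interval 0.41 to 0.64), and the log2 ratio was 0.13 when each library was clustered alone. Dermal papilla and nail mesenchyme-like cells (271 and 249.98 CPM), synovial lining-like cells (121 and 123), mural-like cells (53.4 and 56.3) and osteoblast-like cells (41.5 and 52.7) did not differ beyond counting error. In the Lrrc15 Col11a1 Tnn cluster Inhba stood at 165 against 81.6 CPM and Tgfb2 at 89.99 against 165 CPM. They were the 1 member higher and the 1 lower of 7 there, against 3.01% and 2.94% of genes. The Inhba ratio turned to -0.40 on the log2 scale when each library was clustered alone, and without the 5 cells with the most UMIs of the gene in each library the Tgfb2 log2 ratio was -0.42, within 1.5 times. None of 8 members passed 1.5 times in osteoblast-like cells, where 2.99% of genes were higher and 4.24% lower.

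Ltbp2 was lower in SAR131675 in synovial lining-like cells, at 4.09 against 17.7 CPM on 27 and 92 UMIs (log2 ratio -2.11, interval -2.79 to -1.48). It was the 1 of 9 members lower in this class and none was higher, against 2.85% and 1.89% of genes. Over the alternatives the log2 ratio lay between -2.18 and -1.31. In LNR against sham the same class had a log2 ratio of 1.44, and whether the 2 ratios differ was not tested. Fibroblast-like cells held 20.5 against 27.2 CPM of Ltbp2. Tgfb2 was at 98.2 against 158 CPM in lymphatic endothelial-like cells (log2 ratio -0.69), the 1 of 7 members lower there with none higher, against 3.13% and 2.09% of genes. That ratio was -0.14 without barcodes holding markers of another class. In follicle and nail keratinocyte-like cells Tgfb2 was at 55.3 against 37.7 CPM. This class joins a nail-type Krt42 Spink12 cluster, where Tgfb2 was high, and a Defb6 Cst6 cluster, where it was low. The nail-type cluster held 377 of the 1064 SAR131675 cells and 212 of the 789 control diet cells. The part of cluster makeup in the difference was not tested. Tgfb1 was at 163 against 195 CPM in macrophage-like cells and at 205 against 246 in lymphoid-like cells, and the macrophage-like log2 ratio of -0.25 was 0.03 after thinning. Tgfbi was at 763 against 862 CPM in macrophage-like cells, 348 against 489 in dendritic and monocyte-like cells and 162 against 210.4 in basal keratinocyte-like cells.

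Hair and root sheath-like cells had 3 of 7 members at least 1.5 times lower in SAR131675 and none higher, against 3.17% and 1.49% of genes. They were Tgfb1 (32.6 against 50.3 CPM), Tgfbr3 (8.33 against 12.6) and Tgfbi (8.02 against 13.5), of which Tgfb1 and Tgfbi fell to -0.18 and -0.06 on the log2 scale after thinning and Tgfbr3 to -0.03 without the upper limits on genes and UMIs. In neutrophil-like cells, a class of 200 and 113 cells, Inhba was higher, at 96.3 against 44.4 CPM on 99 and 22 UMIs. It stayed so under all 11 alternatives, but with log2 ratios spread from 0.70 to 4.22. Tgfb1 (88.6 against 133 CPM) and Tgfbr3 (85.6 against 151) were lower. The members higher and lower were 1 and 2 of 6, against 13.9% and 13.1% of genes, so that many genes of this small class lay past 1.5 times. The Tgfb1 ratio stayed past 1.5 times under 2 of the 11 alternatives, with -0.10 on the log2 scale when doublet calls were removed, and the Tgfbr3 ratio turned after thinning. Tgfbr3 was higher in dendritic and monocyte-like cells, at 42.5 against 17.9 CPM, as the 1 of 5 members with none lower, against 2.89% and 3.24% of genes, and turned to -0.30 on the log2 scale with doublet calls removed. Ltbp2 was the 1 of 10 members lower in mural-like cells, at 13.9 against 21.1 CPM with none higher, against 2.03% and 1.08% of genes, and turned under 4 of 11 alternatives. Fst was higher in suprabasal and granular keratinocyte-like cells, at 2.58 against 1.36 CPM (1 of 8 members and none lower, against 1.93% and 1.97% of genes), a direction that turned without barcodes holding markers of another class. In erythroid-like cells Fst was lower at 13.4 against 23.6 CPM (1 of 6 members and none higher, against 4.02% and 0.718% of genes).

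**Figure D5:**
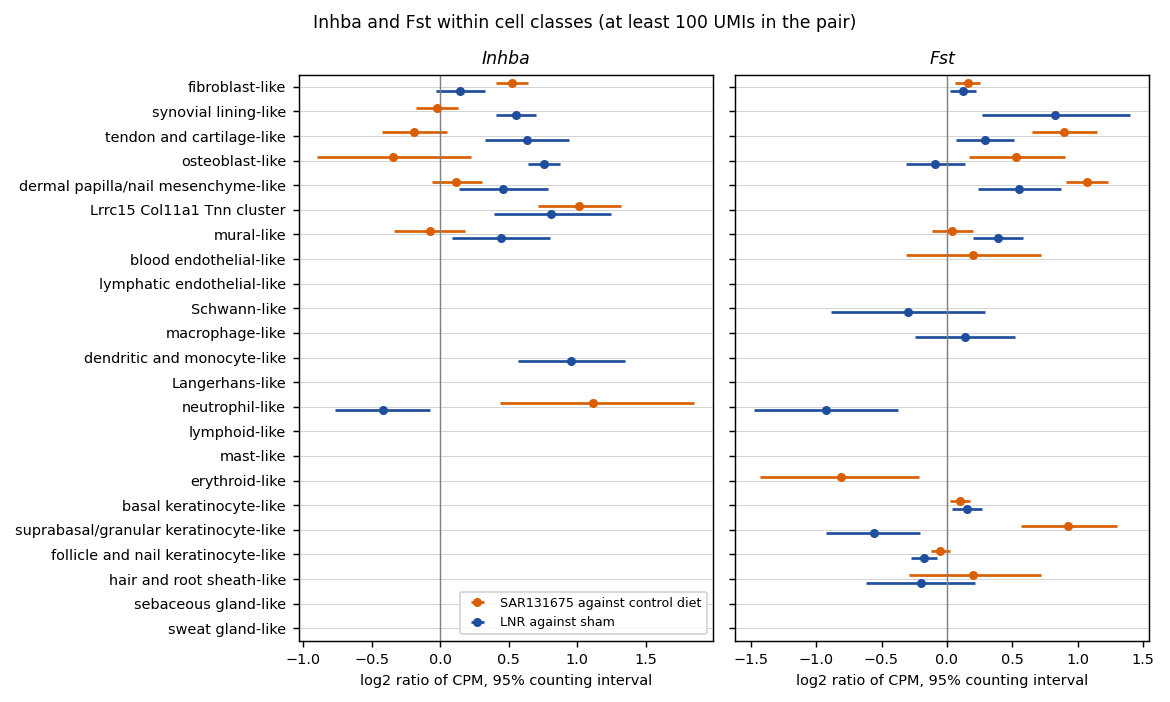
Log2 ratio of CPM with its 95% counting interval (x axis) for Inhba (left) and Fst (right) in each cell class (y axis) with at least 100 UMIs of the gene in the pair, for SAR131675 against control diet and LNR against sham. Osteoblast-like cells had an Inhba log2 ratio of 0.76 in the LNR pair and -0.34 in the SAR131675 pair, and dermal papilla and nail mesenchyme-like cells a Fst log2 ratio of 1.07 in the SAR131675 pair.

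Of dermal papilla and nail mesenchyme-like cells, a UMI of Inhba was found in 50.8% in LNR, 32.7% in sham, 66.4% in SAR131675 and 49.1% in control diet, and a UMI of the activin inhibitor gene Fst in 30.8%, 24.2%, 41.9% and 30.4%. Both were found in 22.2%, 11.8%, 32.6% and 18.3%. In mural-like cells the shares were 14.2%, 12.5%, 22.1% and 19.9% for Inhba, 20.2%, 19.5%, 23.2% and 26.5% for Fst, and 1.63%, 1.15%, 1.66% and 2.39% for both. Doublets and barcodes with markers of another class were kept in these counts, and whether the genes occur together more or less often than apart was not tested. Within mural-like cells of the LNR pair, Inhba stood at 78.9 and 72.7 CPM in the Myh11 cluster, where Fst was low, and at 40.1 and 23.2 CPM in the Rgs5 cluster, where Fst was high. Myh11 was among the leading genes of both clusters. The shares of cells given here depend on the UMIs per cell, and no difference between libraries is drawn from them.

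Pathway genes, the 10 members among them, were read from 7 lists of 58 genes, of which 53 in each pair had at least 100 UMIs over all kept cells. The counts below therefore hold the members again, all 10 among the genes above in LNR and 4 among those above in SAR131675. What share of all genes lay above 0 was not counted. In LNR, 46 of the 53 were above and 7 below their sham level, with a median log2 ratio of 0.17, and 43 with a median of 0.05 when classes were held at their sham shares. Upward, 3 passed 1.5 times and downward none, where 1.5% of all genes were higher and 0.802% lower and the median over all genes was 0.02. They were Inhba, Mstn (2.23 against 1.01 CPM), the muscle growth inhibitor myostatin, and Timp1 (113 against 72.0 CPM), an inhibitor of matrix metalloproteinases. At sham class shares the log2 ratio of Timp1 was 0.26, within 1.5 times, and that of Mstn 0.88, still past it. In SAR131675, 19 were above and 34 below the control diet level, with a median of -0.03, beside -0.01 over all genes. Bambi, a decoy receptor without a kinase domain, was the 1 gene past 1.5 times, at 22.8 against 14.7 CPM (log2 ratio 0.63), and none was lower, where 2.44% of all genes were higher and 2.51% lower. With classes at their control diet shares its log2 ratio was 0.31, within 1.5 times. Hair and root sheath-like cells, its highest class, made up 3.26% of SAR131675 and 1.58% of control diet cells. The intracellular mediators (0 of 4 above, 4 below) and the receptors and co-receptors (1 above, 8 below of 9) lay mostly below, and so did the intracellular inhibitors (2 above, 6 below) and the extracellular inhibitors (1 above, 3 below). Latency and activation genes (5 above, 7 below), ligands (5 above, 3 below) and induced matrix and protease genes (5 above, 3 below) were split. No listed gene passed 1.5 times in the same direction in both pairs. The share of all genes that did so was not counted. With 3 and 1 of 53 past it in LNR and SAR131675, the lack of a shared gene does not show that the pairs differ.

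Many listed genes had a highest class that was the same in all 4 libraries. Blood endothelial-like cells led for the endothelial receptor genes Acvrl1 (72.6, 85.0, 81.8 and 82.8 CPM in LNR, sham, SAR131675 and control diet) and Eng (495, 482, 555 and 577). Lrrc32, whose product displays latent TGF-β on the cell surface, was highest there too (93.4, 117, 90.5 and 102 CPM). Synovial lining-like cells led for Ltbp3, which binds latent TGF-β (251, 245, 199.96 and 201 CPM), and for the induced genes Ccn2 (1649, 1778, 2017 and 1937) and Fn1 (7381, 6488, 8101 and 7964). Fibroblast-like cells led for fibrillin 1, Fbn1 (904, 916, 1954 and 2040 CPM), the Lrrc15 Col11a1 Tnn cluster for periostin, Postn (1819, 1660, 1934 and 2114), and neutrophil-like cells for the latency-opening thrombospondin gene Thbs1 (645, 750, 1512 and 1477).

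The members' class profiles were set against those of 12951 genes over 84 points, 21 classes in 4 libraries, as a description with Pearson's r of log2(CPM + 1). The points of a class share cell type across libraries and those of a library share depth. Inhba was closest to the collagen genes Col6a3 (0.90) and Col6a2 (0.89) and to Adamts2 (0.87), a procollagen protease. Tgfb1 was closest to Msn (0.89), Ppp1r18 and Ifnar2 (both 0.88), Tgfb2 to Rcn2 (0.87), Dync2li1 (0.85) and Nicn1 (0.83), and Tgfb3 to Serpine2 (0.85), B4galt2 (0.81) and P3h3 (0.80). The receptor genes were closest to Rnf2 (0.90), P4ha1 and Asap1 (both 0.88) for Tgfbr1, to Serinc1 (0.86), Psen2 (0.86) and Phf1 (0.85) for Tgfbr2, and to Lama4 (0.82), Syne1 and Nfia (both 0.81) for Tgfbr3. Ltbp2 was closest to Nbl1 (0.79), Tnfrsf11b and Omd (both 0.77), Fst to Dact1 (0.73), Cxcl14 (0.73) and Ntrk2 (0.71), and Tgfbi to Ifi27l2a (0.73), Naaa (0.69) and Lyl1 (0.67). Among the members themselves the closest pair was Tgfb2 and Tgfb3 (0.77), followed by Ltbp2 with Inhba and with Tgfb2 (both 0.66) and Tgfb2 with Inhba (0.64), and Inhba and Fst had an r of 0.50.

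The promoters of Inhba, Tgfb2 and Ltbp2, the members whose class profiles ran together and for which RefSeq held a region, were read for motifs of factors known to act in this pathway. RefSeq regions of the GRCm38.p6 assembly matched 7 of the 10 members, all but Tgfb3, Tgfbr3 and Fst. The 250 bases before the start are shown in lower case, 5′ to 3′ on the gene's strand, with matches to the SMAD box CAGAC, or its reverse GTCTG, in capitals. The regions are chr13:16011601-16011850 (plus strand) for Inhba, chr1:186705990-186706239 (minus strand) for Tgfb2 and chr12:84876492-84876741 (minus strand) for Ltbp2.
Inhba: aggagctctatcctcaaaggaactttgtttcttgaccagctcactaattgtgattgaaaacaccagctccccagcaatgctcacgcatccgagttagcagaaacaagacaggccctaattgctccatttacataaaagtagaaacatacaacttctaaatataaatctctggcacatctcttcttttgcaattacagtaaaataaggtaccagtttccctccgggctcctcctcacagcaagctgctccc
Tgfb2: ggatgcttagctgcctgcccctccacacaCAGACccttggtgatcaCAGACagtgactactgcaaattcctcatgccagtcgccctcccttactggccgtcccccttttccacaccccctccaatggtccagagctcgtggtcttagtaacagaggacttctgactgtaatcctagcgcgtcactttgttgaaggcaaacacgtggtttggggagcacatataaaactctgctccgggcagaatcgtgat
Ltbp2: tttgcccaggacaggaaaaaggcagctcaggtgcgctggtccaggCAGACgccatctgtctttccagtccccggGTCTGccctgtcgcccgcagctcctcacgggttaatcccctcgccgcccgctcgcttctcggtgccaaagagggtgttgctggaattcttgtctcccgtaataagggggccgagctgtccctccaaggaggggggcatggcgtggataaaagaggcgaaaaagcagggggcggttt
Inhba held no match to any of the 3 motifs searched on both strands, the SMAD box, the AP-1 site TGANTCA and the cyclic AMP response element TGACGTCA. Tgfb2 held the SMAD box 221 and 204 bases before its start, and Ltbp2 205 and 176 bases before. Of the other members, Tgfbi held it 239 and 85 bases before its start, Tgfbr2 at 160 bases, and Tgfbr1 at 203 bases in 1 of its 2 starts. The SMAD box occurred in 42.2% of 32851 promoter regions of the same length, the AP-1 site in 6.75% and the cyclic AMP response element in 1.55%.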

How the data were processed

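Single-cell 3′ libraries were sequenced from 4 pools of digits, and the tables as deposited hold whole-number UMI counts, not normalized, which the authors made with Cell Ranger, 6.1.2 in the matrix headers of LNR and sham and 8.0.1 in those of SAR131675 and control diet, on GRCm39 per the labels. Whether intronic reads were counted is not given in the sources used here. Later versions count them by default, so levels were not compared between pairs. Totals were 168507188 UMIs (LNR), 175998346 (sham), 585284877 (SAR131675) and 448276501 (control diet).

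Barcodes with 200 to 5500 genes, at most 30000 UMIs and at most 10% mitochondrial UMIs were kept, limits that the study gives for its LNR cells and that were used for both pairs. Each pair was clustered with scanpy 1.11.5 (2000 variable genes, 30 components, 20 neighbours, Leiden resolution 2) without the members and listed genes. Clusters were named from marker lists, with naming limits chosen after the cluster markers were seen. Doublets were called with Scrublet (6.23%, 8.12%, 4.55% and 1.01% of kept cells in LNR, sham, SAR131675 and control diet) and kept. UMIs were summed per class and library, with exact Poisson intervals for levels, exact conditional intervals for ratios and exact binomial intervals for shares. A member was called at 1.5 times with at least 100 UMIs in the pair. Named genes were the 10 members, listed genes past 1.5 times the same way in both pairs, the highest class of listed genes with at least 1000 UMIs, and the 3 genes most like each member. The genes past 1.5 times in 1 pair were named after their values were seen, and so were the background classes for shares. The members and lists were chosen with earlier results of these data known. The ratio step was run on simulated Poisson counts, the model that its intervals assume. UMIs gathered in a few cells were not simulated, so that the run does not show how the intervals hold for such genes. Alternatives were no upper limits, 5% mitochondrial UMIs, doublet calls or mixed barcodes removed, thinning to 1500 UMIs, resolution 0.7, each library clustered alone, classes from markers of each cell, mean CPM per cell, centring on the median gene, without the 5 cells with most UMIs, a fold of 2, a minimum of 20 UMIs, control class shares and, in the LNR pair, no Krt36 Krt84 cluster. Deposited tables held no other per-sample columns. Sequences were read from RefSeq (GRCm38.p6).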

Additional observations from a re-analysis of the deposited data

How the results depend on the processing

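No result had a test, so that the alternatives show only how values moved. Over all kept cells, 17 of the 19 log2 ratios whose interval left out 0 kept their sign under every alternative. Within classes the alternatives were run for 104 ratios only. These were the ratios of fibroblast-like, macrophage-like, osteoblast-like, lymphatic endothelial-like and dermal papilla and nail mesenchyme-like cells, and in other classes those past 1.5 times beyond counting error. Of these, 64 had an interval that left out 0, and 47 of the 64 kept their sign. The remaining ratios within classes were not rerun. Shares of cells with a UMI moved under thinning in 39 of 40 cases. No paired analysis was possible because each condition had 1 library. No member passed 1.5 times in SAR131675 against control diet, and 1 (Inhba) did with mixed barcodes removed. In LNR against sham 1 did (Inhba), and the number was 0 at a fold of 2, 2 (Inhba and Ltbp2) with doublet calls removed and 0 at control class shares. It was 1 as a mean over cells, but there the member was Ltbp2, and 1 (Inhba) without the Krt36 Krt84 cluster. The last alternative and the control class shares were chosen after seeing the data. Of 32 calls within classes, 9 stayed past 1.5 times in the same direction under every alternative run and 11 turned under at least 1.

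The values that turned are log2 ratios and, except where an alternative removes cells or UMIs, the cause was not tested. At control class shares Tgfb2 in SAR131675 over all cells was -0.00022. Without upper limits on genes and UMIs, Ltbp2 in SAR131675 was 0.0010 over all cells and 0.25 in mural-like cells, and Tgfbr1 in dermal papilla and nail mesenchyme-like cells 0.038. Under the same setting tendon and cartilage-like over osteoblast-like cells for Ltbp2 was -0.32 in SAR131675 and -1.08 in control diet, dermal papilla and nail mesenchyme-like over tendon and cartilage-like cells for Inhba in control diet -0.035, and over follicle and nail keratinocyte-like cells for Fst in LNR -0.033.

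With each library clustered alone, Inhba in the Lrrc15 Col11a1 Tnn cluster was -0.40 and Ltbp2 in mural-like cells 2.00 for SAR131675, and Fst in dermal papilla and nail mesenchyme-like cells -0.69 and Ltbp2 in tendon and cartilage-like cells -0.38 for LNR. With doublet calls removed, Tgfbr3 in dendritic and monocyte-like cells was -0.30 for SAR131675, and Tgfbi in macrophage-like cells -0.0016 and Fst in neutrophil-like cells 0.81 for LNR.

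With mixed barcodes removed, the SAR131675 ratios of Tgfbr2 in lymphatic endothelial-like cells, Ltbp2 in mural-like cells and Fst in suprabasal and granular keratinocyte-like cells were -0.21, 0.10 and -0.34. The LNR ratios of Tgfbi in mural-like, Tgfb2 and Tgfbr3 in neutrophil-like and Inhba in tendon and cartilage-like cells were -0.68, -1.30, -2.89 and -0.20. Fibroblast-like over tendon and cartilage-like cells for Tgfbr3 in sham was -0.12, osteoblast-like over tendon and cartilage-like cells for Ltbp2 in LNR -0.081, and osteoblast-like over dermal papilla and nail mesenchyme-like cells for Inhba in sham -0.10.

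After thinning, Tgfb1 in macrophage-like cells was 0.032 and Tgfbr3 in neutrophil-like cells 0.31 for SAR131675, and Fst in neutrophil-like cells 0.77 for LNR. Mural-like over tendon and cartilage-like cells for Tgfb3 in control diet was -0.20, tendon and cartilage-like over osteoblast-like cells for Ltbp2 in SAR131675 -0.25, and dermal papilla and nail mesenchyme-like over follicle and nail keratinocyte-like cells for Fst in control diet -0.39. With classes from markers of each cell, the SAR131675 ratios of Ltbp2 in mural-like, Tgfbr3 in neutrophil-like and Fst in osteoblast-like cells were 0.21, 0.012 and -0.16, and the LNR ratios of Tgfbi in mural-like, Tgfbr3 in neutrophil-like and Inhba in tendon and cartilage-like cells -0.0078, -0.44 and -0.56. Macrophage-like over dendritic and monocyte-like cells for Tgfb1 in LNR was -0.33, fibroblast-like over tendon and cartilage-like cells for Tgfbr3 in sham -0.25, and tendon and cartilage-like over osteoblast-like cells for Ltbp2 in control diet -0.35.

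Without the 5 cells with most UMIs, Tgfbr3 in neutrophil-like cells was 0.0014 for SAR131675. In control diet, resolution 0.7 gave -0.38 for Tgfb3 (mural-like over tendon and cartilage-like cells) and -0.21 for Fst (dermal papilla and nail mesenchyme-like over follicle and nail keratinocyte-like cells), the latter -0.064 as a mean over cells. Depth limits the members with under 100 UMIs in a class, for which no ratio was given.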

Other observations

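Clusters inside the named classes separated the members further, as values with no test. In the LNR pair a macrophage-like cluster led by Vsig4, a gene of resident macrophages, held 142 CPM of Tgfbr1 in LNR and 157 in sham, against 36.4 and 38.0 CPM in the cluster led by Pf4, and Tgfb1 stood at 270.5 and 289 CPM against 170.3 and 147. Among tendon and cartilage-like cells of the same pair, the Angptl7 Fmod Thbs4 cluster held 108 and 125 CPM of Tgfb2 and 43.1 and 45.9 CPM of Tgfb1, while the Cytl1 Snorc Col10a1 cluster, with hypertrophic cartilage genes, held 19.8 and 17.9 CPM of Tgfb2 and 163 and 140.3 CPM of Tgfb1. A fibroblast-like cluster led by Col8a1, Rbp4 and Eln held Tgfb3 at 285 CPM in SAR131675, 294 in control diet, 145 in LNR and 137 in sham.

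In the epithelium Tgfb2 lay in the nail-type Krt42 Spink12 cluster (152 CPM in SAR131675, 139.96 in control diet, 130.5 in LNR and 135 in sham) and was low in the Defb6 Cst6 cluster (4.71, 3.69, 9.51 and 7.46 CPM). Fst in basal keratinocyte-like cells was highest in clusters led by the follicle stem cell genes Lgr5 and Lhx2, at 147 and 139 CPM in LNR and sham, and at 159 and 179 CPM in SAR131675 and control diet. A cluster of SAR131675 and control diet led by Gm973, Il31ra and Grem1 held 119 and 129 CPM. The Fcgbp Krt14 Krt5 cluster of LNR and sham held 10.4 and 8.54 CPM, and the Tspear Sox6 Krt5 cluster of SAR131675 and control diet 2.02 and 1.16. A cluster of LNR and sham led by the cell division genes Cenpf and H1f5 held 82.5 and 85.3 CPM.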
